A study of Mus musculus with 18 samples.

Results

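The genes described here are the core of antigen presentation by the major histocompatibility complex (MHC) in striatal microglia of Huntington's disease (HD) model mice. They were chosen by symbol, through the mouse gene annotation GENCODE M21, and comprise 10 of the 55536 genes in the deposited count table. The class I group holds 5 of them, H2-K1, H2-D1, B2m, Tap1 and Tap2, and the class II group holds the other 5, H2-Aa, H2-Ab1, H2-Eb1, Cd74 and Ciita. The rule uses symbols and no measured value, though the genes were proposed with earlier results of these data known.

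RNA was sequenced from microglia that had been pulled out of dissociated mouse striatum with magnetic beads against CD11b, a surface integrin of myeloid cells, in 18 samples of 4 genotypes on a C57Bl6/J background. WT mice (n = 5) carried neither mutation, and Tyrobp-/- mice (n = 3) lacked both copies of Tyrobp, which encodes the signalling adaptor DAP12. Q175 mice (n = 5) were heterozygous for a knock-in that puts human HTT exon 1 with an expanded CAG repeat into the mouse Htt gene, and Q175;Tyrobp-/- mice (n = 5) had both alterations. The labels give no age for these mice, and name a pair of striata per sample where the study's methods name a single one. Both alterations are germline, so they are present in every cell of the animal and not in microglia alone. The sexes were unevenly spread, with 1 female of 5 in WT, 2 of 3 in Tyrobp-/-, 4 of 5 in Q175 and 2 of 5 in Q175;Tyrobp-/-.

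MHC class I molecules display peptides made inside the cell to CD8 T cells. A heavy chain, such as the products of H2-K1 and H2-D1, pairs with the invariant light chain beta-2 microglobulin from B2m, and peptides reach it through the TAP transporter, a dimer of Tap1 and Tap2. MHC class II molecules display peptides from the endosome to CD4 T cells. Their alpha and beta chains come from H2-Aa, H2-Ab1 and H2-Eb1, the invariant chain Cd74 guards the groove until the endosome is reached, and the transactivator Ciita switches the class II genes on. Resting microglia are known for low class II levels, which interferon gamma can raise, whereas border-associated macrophages and dendritic cells of the brain's coverings carry more.

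Most members lie close together. In the GRCm38 assembly H2-K1 spans chr17:33996017-34000347 on the minus strand, Tap1 spans chr17:34187553-34197225, Tap2 chr17:34203527-34216321, H2-Ab1 chr17:34257689-34269419, H2-Aa chr17:34282744-34287823, H2-Eb1 chr17:34305867-34316674 and H2-D1 chr17:35262730-35267499, all within the H2 complex. B2m lies apart at chr2:122147686-122153083 and Ciita at chr16:10480059-10528418, and Cd74 also lies outside the H2 complex. All 10 are protein-coding genes, and reads were summed over their exons without regard to strand, so reads of an antisense partner could not be separated. H2-K1, H2-D1 and the H2-Q and H2-T genes are closely related copies, and the split of reads between them is uncertain.

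Promoters of class I and class II genes are known to share an enhanceosome module of X and Y boxes, and those of class I genes also carry NF-kB and interferon response elements. The bases just upstream of the start are shown for 2 class I and 2 class II members, because the members of each class are compared for moving together below. They are RefSeq windows on GRCm38.p6, 190 bases ending at the start site, written 5′ to 3′ on the strand of the gene, with capitals for matches to 4 short motifs on either strand. H2-K1 is chr17:34000348-34000537 on the minus strand, B2m chr2:122147497-122147686 on the plus strand, H2-Aa chr17:34287824-34288013 on the minus strand and H2-Eb1 chr17:34305677-34305866 on the plus strand.
H2-K1: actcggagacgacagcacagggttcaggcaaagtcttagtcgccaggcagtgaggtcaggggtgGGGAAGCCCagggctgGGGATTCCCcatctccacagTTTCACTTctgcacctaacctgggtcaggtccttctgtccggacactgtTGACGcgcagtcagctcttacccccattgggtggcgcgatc
B2m: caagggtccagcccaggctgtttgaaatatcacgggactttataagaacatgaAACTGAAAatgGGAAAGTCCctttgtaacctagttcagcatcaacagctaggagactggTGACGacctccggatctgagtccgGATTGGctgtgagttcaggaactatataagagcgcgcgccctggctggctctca
H2-Aa: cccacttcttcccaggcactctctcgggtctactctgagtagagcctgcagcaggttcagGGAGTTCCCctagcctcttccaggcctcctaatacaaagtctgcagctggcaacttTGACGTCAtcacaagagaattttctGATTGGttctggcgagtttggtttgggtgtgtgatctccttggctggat
H2-Eb1: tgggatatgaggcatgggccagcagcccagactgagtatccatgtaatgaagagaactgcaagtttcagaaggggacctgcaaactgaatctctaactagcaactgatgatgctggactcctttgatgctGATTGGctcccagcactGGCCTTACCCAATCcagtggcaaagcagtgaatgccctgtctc

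The motif letters were chosen after these windows had been read, so the matches are a description. The letters GATTGG, the core of the Y box, occurred in the 250 bases upstream of 5 of the 6 members in the RefSeq table, against 14.6% of all 32851 windows. TGACG, the core of the X2 box, occurred in 5 of 6 against 17.8%, the NF-kB-like GGNNTTNCC in 5 of 6 against 13.5%, and the interferon response-like AANNGAAA in 4 of 6 against 21.3%. In H2-Aa the TGACG matches on the 2 strands overlapped, and in H2-Eb1 a GGNNTTNCC match overlapped the second GATTGG match. The windows of H2-K1 and H2-D1 were 89.6% identical over 192 aligned columns. H2-D1 and Tap1 were searched but are not shown because GENCODE M21 annotates their windows as exon, and H2-Ab1, Tap2, Cd74 and Ciita were not matched.

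The libraries held 11260410 to 29771983 counted reads. Tyrobp checked the labels: its level was 198 to 442 CPM, counts scaled to the size of each library, in the 10 samples with the gene and 9.59 to 22.3 CPM in the 8 samples without it. Microglial markers were high in every sample, with 10 of them together at 11384 to 22905 CPM, while 8 astrocyte markers together ran from 484 CPM in a WT sample to 6041 CPM in a Q175 sample. The T and NK cell list of 6 genes summed to 0.117 to 3.48 CPM, with Cd3e at 0 to 15 counts per library. The B-cell list of 5 genes summed to 6.74 to 18.2 CPM, highest in Tyrobp-/- replicate 15. Nearly all of it was Cd79b, at a mean of 8.10 to 14.1 CPM per genotype. Cd79a had 0 to 5 counts per library, and 0 in Tyrobp-/- replicate 15. In bulk RNA, fewer cells of a type and less RNA per cell cannot be told apart.

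In these bead-selected samples, the class I members had higher levels for their exonic length than the class II members other than Cd74. In CPM divided by the exonic length in kilobases (RPKM), B2m had a median of 857 over the 18 samples, ahead of H2-D1 at 82.5 and H2-K1 at 42.8, and each of these 3 exceeded the next in all 18 samples. The transporter genes followed, Tap2 at 10.3 and Tap1 at 6.72 RPKM, with Cd74 between them at 10.05 RPKM. Tap2 exceeded Cd74 in only 10 of the 18 samples, so that pair did not separate. The class II chains were lower, H2-Ab1 at 3.20, H2-Eb1 at 2.52 and H2-Aa at 1.99 RPKM, and their order held in 15 and 13 of 18 samples. Parts of this order depend on the length used. In median CPM, H2-Aa (7.55) lay above H2-Eb1 (4.89) and Tap1 (36.8) above Cd74 (16.9). Ciita closed the order at 0.0543 RPKM, with at most 31 reads in any library. The H2-Ea-ps gene, which this strain carries in place of a working E alpha gene, had 0 reads in all 18 libraries, so H2-Eb1 transcripts were counted without those of their usual partner chain.

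**Figure D1:**
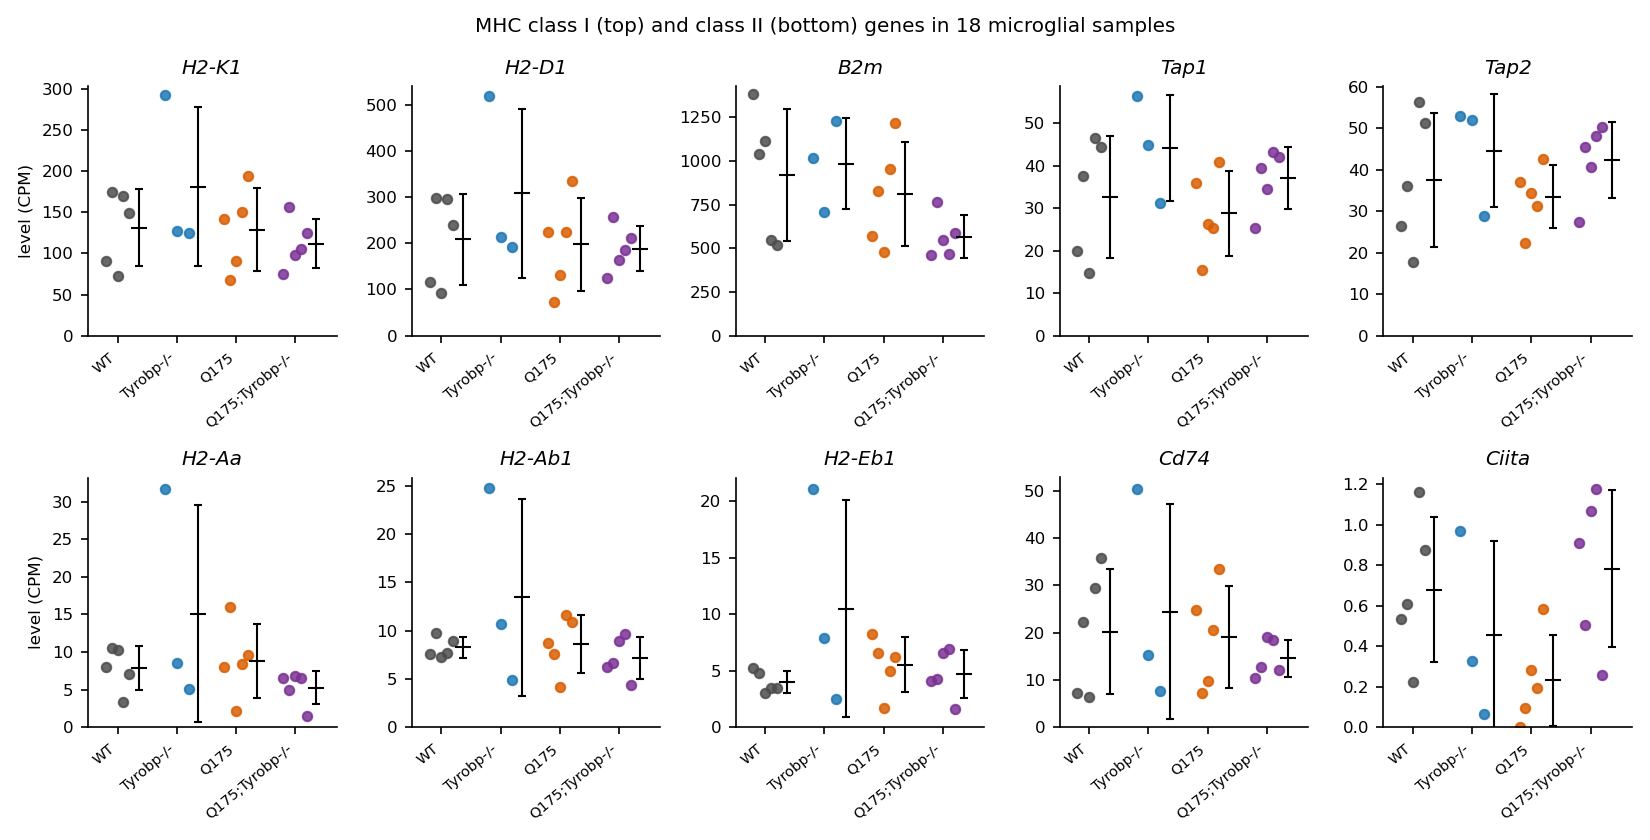
Level of each member (y axis, CPM, from 0) in each of the 18 samples, by genotype on the x axis. Points are samples, and the dash with bars is the group mean ± SD, cut at 0 where the bar would pass below it. A single Tyrobp-/- sample lies above all others for 7 of the 10 genes, and every pair of groups overlaps in every panel.

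For every member the 4 group means spanned less than the samples of the widest group. B2m averaged 919.5 ± 377 CPM (SD, n = 5) in WT, 984 ± 261 (n = 3) in Tyrobp-/-, 809 ± 298 (n = 5) in Q175 and 566 ± 124 (n = 5) in Q175;Tyrobp-/-. H2-D1 averaged 208 ± 98.0, 308 ± 182, 197 ± 101 and 188 ± 49.6 CPM in the same order of genotypes, and Tap2 37.5 ± 16.3, 44.6 ± 13.6, 33.5 ± 7.55 and 42.4 ± 9.16 CPM. Q175;Tyrobp-/- had the smallest SD for B2m and H2-D1. The invariant chain Cd74 averaged 20.2 ± 13.2, 24.5 ± 22.8, 19.1 ± 10.8 and 14.5 ± 3.96 CPM, and H2-Ab1, the beta chain of the A molecule, 8.26 ± 1.08, 13.5 ± 10.2, 8.60 ± 2.99 and 7.16 ± 2.15 CPM. Over all 18 samples the highest value exceeded the lowest 2.99-fold for B2m, 7.16-fold for H2-D1 and 21.1-fold for H2-Aa.

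The first comparison asks whether the expanded Htt allele changes presentation genes when Tyrobp is present, and no member passed the test between Q175 and WT microglia. The fitted log2 fold changes of the 5 class I members lay between -0.21 for B2m and -0.04 for H2-K1, and 3 of the 5 class II members had a positive value, the highest being that of H2-Eb1 at 0.45 ± 0.36. B2m had 1383, 1039, 1113, 546 and 517 CPM in WT replicates 1, 2, 6, 7 and 8 and 570, 827, 477, 952 and 1219 CPM in Q175 replicates 3, 4, 9, 14 and 17. Each genotype thus held samples with high and with low B2m. H2-K1 had 90.7, 174.9, 72.1, 170 and 149 CPM in WT and 141, 67.1, 90.2, 151 and 194 CPM in Q175, and its log2 fold change was -0.04 ± 0.31 (SE; 95% interval -0.70 to 0.62).

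Ciita showed the widest difference between Q175 and WT, on very few reads. WT libraries had 10, 9, 4, 16 and 16 Ciita reads (0.532, 0.608, 0.221, 1.16 and 0.876 CPM), and Q175 libraries had 0, 1, 7, 3 and 13 (0, 0.0920, 0.282, 0.194 and 0.584 CPM). A count of 0 in Q175 replicate 3 allows up to 0.222 CPM, which 3 reads would give. The log2 fold change was -1.43 ± 0.70 (edgeR adjusted p = 0.844). Ciita was the member nearest to a call here, and the groups overlapped. Only WT replicate 7 reached 1 CPM, the limit for testing a gene. Ciita was thus tested only through the group where it was higher.

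Of the 10 members, 0 were called in Q175 against WT at a false discovery rate (FDR) of 0.1 by edgeR and 0 by DESeq2, against 0% and 1.28% of the 18266 genes tested. An unadjusted p under 0.05 was reached by 0 members, against 6.24% of genes. Groups without overlap were seen for 0 members and for 1.16% of genes. The median log2 fold change was -0.17 for class I and 0.04 for class II, beside -0.02 over all genes. Q175 held 4 of 5 females against 1 of 5 in WT, and with sex as a term the class II median was -0.36. The same Q175 samples had more astrocyte RNA, 884 to 6041 CPM over 8 markers against 484 to 994 CPM in WT. A further fit had a score of astrocyte, neuron and oligodendrocyte markers as a term. Its medians were -0.72 for class I and -0.74 for class II, with 0 members called. The score ran from -0.65 to -0.46 in WT and from 0.046 to 1.47 in Q175, without overlap. That fit therefore cannot separate genotype from non-microglial RNA, whose part in the result was not tested.

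**Figure D2:**
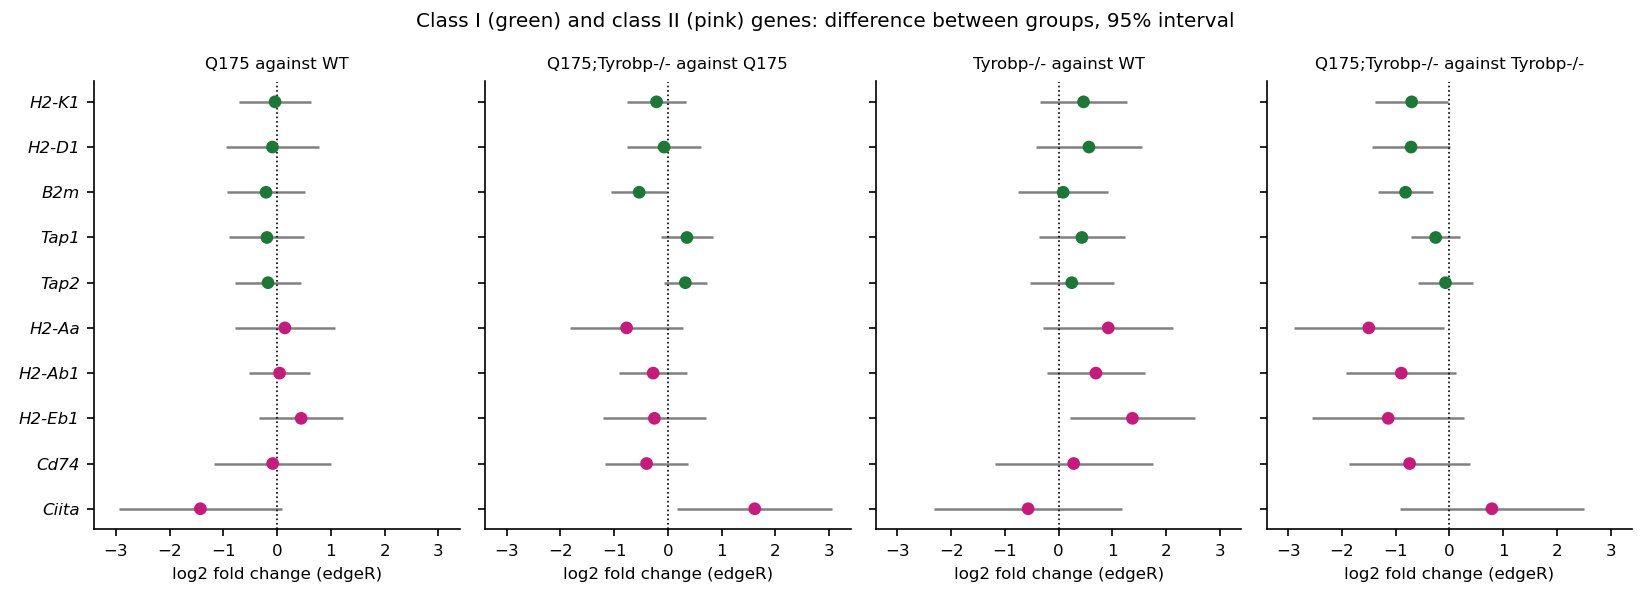
Log2 fold change (x axis, edgeR) of each member in the 4 comparisons between 2 genotypes, with its 95% interval as a grey line. Class I genes are green and class II genes pink. The intervals of B2m and Ciita in Q175;Tyrobp-/- against Q175, of H2-Eb1 in Tyrobp-/- against WT, and of H2-K1, B2m and H2-Aa in Q175;Tyrobp-/- against Tyrobp-/- leave out 0 before any adjustment.

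The second comparison asks what loss of Tyrobp does on the Q175 background, and the fitted values of the class I genes differed in sign. B2m was at 462, 766, 547, 469 and 586 CPM in replicates 5, 11, 12, 13 and 16, where Q175 ranged from 477 to 1219 CPM. Its log2 fold change was -0.53 ± 0.24 (unadjusted p = 0.0457, edgeR adjusted p = 0.533), and 5 of the 25 pairs of samples went the other way. The transporter genes had values of the opposite sign. Tap1 was at 35.9, 15.5, 26.2, 25.3 and 41.0 CPM in Q175 and at 25.4, 39.6, 34.7, 43.4 and 42.1 CPM in Q175;Tyrobp-/-, so that the groups overlapped, and its log2 fold change was 0.35 ± 0.22. Tap2 was at 0.32 ± 0.18, and the heavy chains lay near 0, H2-K1 at -0.21 ± 0.25 and H2-D1 at -0.07 ± 0.32.

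Among class II genes the transactivator and the chains also differed in sign. Ciita, at 15, 11, 31, 20 and 6 reads (0.910, 0.503, 1.07, 1.17 and 0.257 CPM) in Q175;Tyrobp-/-, lay above Q175 in 22 of 25 pairs of samples. It was tested only through Q175;Tyrobp-/- samples, the higher group, since no Q175 sample reached 1 CPM. Its log2 fold change was 1.62 ± 0.66 (unadjusted p = 0.0308, edgeR adjusted p = 0.533). The genes that Ciita is known to switch on did not share that sign, with H2-Aa at -0.77 ± 0.48, H2-Ab1 at -0.27 ± 0.29, H2-Eb1 at -0.25 ± 0.44 and Cd74 at -0.40 ± 0.35. Single samples moved these values by more than 1.5 times: H2-Aa was at -0.40 without Q175 replicate 4, Cd74 at -0.13 without Q175 replicate 17, and H2-Eb1 at -0.029 and H2-Ab1 at -0.14 without Q175;Tyrobp-/- replicate 16. Without Q175 replicate 9, H2-Eb1 was at -0.49 and H2-Ab1 at -0.46. Q175;Tyrobp-/- replicate 16 had the lowest H2-Aa of all samples, 1.502 CPM, and the lowest H2-Eb1, 1.59 CPM.

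Of these values, 0 passed after adjustment. At FDR 0.1, 0 of 10 members were called by edgeR and 0 by DESeq2, against 0.0111% and 0.227% of the 18059 genes tested. The 2 members with an unadjusted p under 0.05 compare with 8.01% of genes, and 0 members had groups without overlap, against 0.853% of genes. Medians were -0.07 for class I and -0.27 for class II, beside -0.05 over all genes.

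Without the Q175 allele, Tyrobp-/- samples had higher fitted values than WT for 9 of 10 members, and most of those values rested on 1 sample. H2-Eb1 was at 5.27, 4.79, 3.03, 3.49 and 3.45 CPM in WT and at 21.1, 7.91 and 2.45 CPM in Tyrobp-/- replicates 15, 19 and 20. H2-Aa was at 7.99, 10.5, 10.3, 3.34 and 7.12 CPM in WT and at 31.6, 8.52 and 5.10 CPM in Tyrobp-/-. Replicate 15 was therefore above every WT sample, replicate 20 was below the lowest WT sample for H2-Eb1, and the groups overlapped. Replicate 15 was the highest of all 18 samples for 7 members, 3 of class I and 4 of class II, with H2-Ab1 at 24.8, Cd74 at 50.4, H2-K1 at 292, H2-D1 at 518 and Tap1 at 56.4 CPM.

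The log2 fold change of H2-Eb1 was 1.37 ± 0.53 (unadjusted p = 0.0250, edgeR adjusted p = 0.6246) with all samples and 0.35 without replicate 15. H2-Aa went from 0.92 to -0.23, H2-Ab1 from 0.69 to -0.10, Cd74 from 0.28 to -0.81, H2-K1 from 0.46 to -0.07 and H2-D1 from 0.57 to -0.04. B2m, the light chain, went from 0.09 to 0.06. Without replicate 20 in place of 15, the class II median was 1.06, where it was 0.69 with all samples and -0.23 without replicate 15. Replicate 20 had the highest score of non-microglial markers in the group, 1.23 against -0.41 and -0.30 in the others. Its astrocyte markers summed to 3930 CPM, against 698 and 1419 CPM.

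At FDR 0.1, 0 of 10 members were called in Tyrobp-/- against WT by edgeR and 0 by DESeq2, against 0.0222% and 0.932% of the 18017 genes tested. The 1 member with an unadjusted p under 0.05 compares with 6.82% of genes, and the 0 members with groups that do not overlap compare with 4.5% of genes. The class I median was 0.43 beside 0.02 over all genes.

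**Figure D3:**
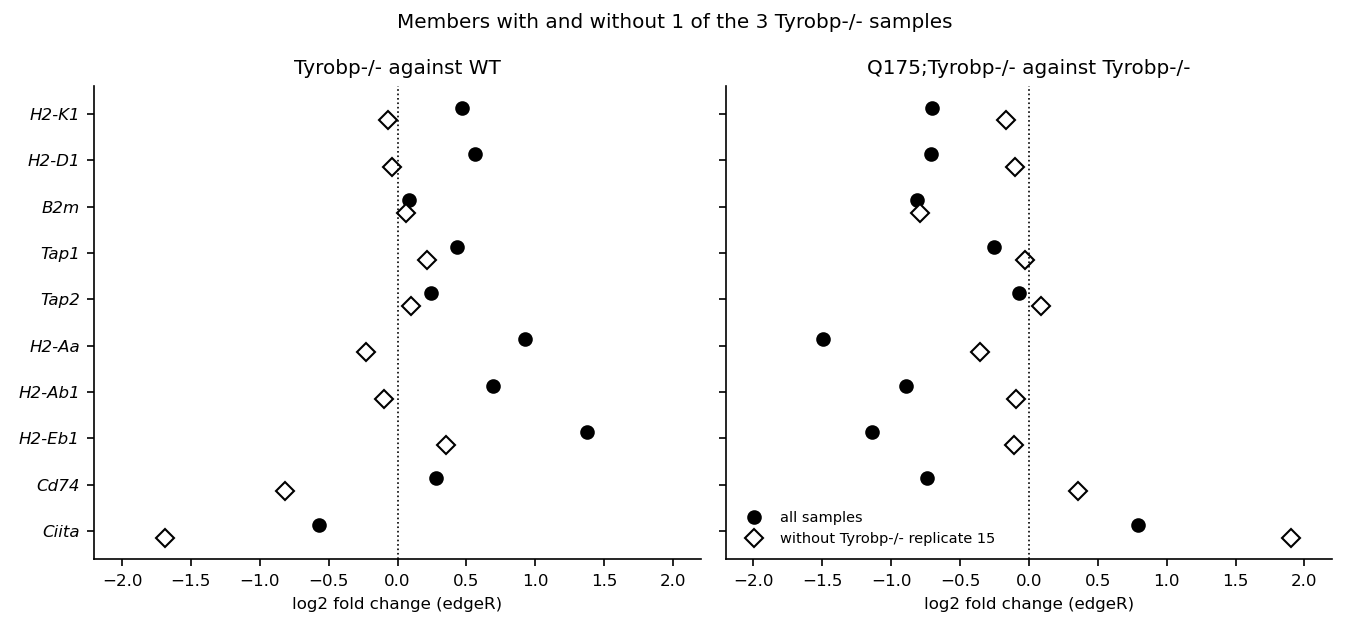
Log2 fold change (x axis, edgeR) of each member with all samples (filled circles) and without Tyrobp-/- replicate 15 (open diamonds), for the 2 comparisons that use the Tyrobp-/- group. The diamonds of H2-Aa, H2-Ab1 and H2-Eb1 lie between -0.35 and 0.35. That of Cd74 lies at -0.81 in Tyrobp-/- against WT and at 0.36 in Q175;Tyrobp-/- against Tyrobp-/-. B2m is at about the same place with and without that sample.

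The fourth comparison sets Q175;Tyrobp-/- against Tyrobp-/- and asks what the Htt allele does when Tyrobp is absent. It gave the only member called by any method, B2m. Tyrobp-/- replicates 15, 19 and 20 had 1017, 707 and 1227 CPM of B2m against 462 to 766 CPM in Q175;Tyrobp-/-, and 14 of the 15 pairs of samples had the lower value in Q175;Tyrobp-/-. The log2 fold change was -0.81 ± 0.22 with an unadjusted p of 0.00522. B2m was not called by edgeR (adjusted p = 0.291) and was called by DESeq2 (adjusted p = 0.0526). Over the other alternatives its log2 fold change stayed between -1.005 and -0.56, and edgeR's adjusted p between 0.148 and 0.754.

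The other members had negative values too, with the exception of Ciita at 0.79 ± 0.76. H2-K1 was at -0.70 ± 0.30 (unadjusted p = 0.0454) and H2-D1 at -0.71 ± 0.32, while the transporter genes lay nearer to 0, Tap1 at -0.25 ± 0.20 and Tap2 at -0.07 ± 0.22. Among class II genes, H2-Aa was at -1.50 ± 0.62 (unadjusted p = 0.0375), H2-Eb1 at -1.14 ± 0.62, H2-Ab1 at -0.89 ± 0.45 and Cd74 at -0.74 ± 0.50. These values rested on the same Tyrobp-/- sample: without replicate 15, H2-K1 was at -0.17, H2-Aa at -0.35, H2-Ab1 at -0.10, H2-Eb1 at -0.11 and Cd74 at 0.36. B2m without it was at -0.79.

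In Q175;Tyrobp-/- against Tyrobp-/-, edgeR called 0 of 10 members at FDR 0.1 against 0% of the 17723 genes tested, and DESeq2 called 1 against 3.84%. The 3 members with an unadjusted p under 0.05 compare with 13.2% of genes, and 0 members had groups without overlap against 9.04%. The medians of -0.70 for class I and -0.89 for class II stand beside -0.01 over all genes. Without replicate 15 they were -0.10 for both classes. This comparison and the one before it share the Tyrobp-/- samples, so their opposite signs are not independent.

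The interaction asks whether loss of Tyrobp has a different effect in Q175 than in non-Q175 mice, over all 18 samples. By edgeR 0 of 10 members were called at FDR 0.1 and by DESeq2 0, against 0% and 0.0107% of the 18613 genes tested. An unadjusted p under 0.05 was reached by 2 members, against 6.01% of genes. H2-Eb1 had an interaction of -1.54 ± 0.73 (unadjusted p = 0.0478) and Ciita one of 2.27 ± 1.04 (unadjusted p = 0.0428), each with an edgeR adjusted p of 0.716. No Q175 sample reached 1 CPM of Ciita, so it was tested only through the other genotypes. Without Tyrobp-/- replicate 15 the H2-Eb1 value was -0.54 and that of Ciita 3.37, and the medians went from -0.55 to 0.02 for class I and from -0.89 to -0.11 for class II.

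Across samples the members formed groups that cut across the classes. The heavy chains H2-K1 and H2-D1 varied together, with a Pearson r of 0.98 and a Spearman rho of 0.99 over the 18 samples (permutation p = 1e-05 for both, the smallest that 100000 permutations can give; adjusted p = 0.00011 for r over the 55 relations computed). It was 0.97 without the 2 most extreme samples and 0.99 within genotypes. The transporter subunits Tap1 and Tap2 did so as well (r = 0.95, rho = 0.98, permutation p = 1e-05 for both, adjusted p = 0.00011 for r), at 0.92 without the 2 extreme samples. H2-D1 and Tap1 had an r of 0.88 (rho = 0.75, permutation p = 1e-05 and 0.00058, adjusted p = 0.00011 for r), and 0.82 without the 2 extreme samples. The closely related sequences of H2-K1 and H2-D1 leave the split of their reads uncertain, and their part in that r was not tested.

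B2m had low r with its partner chains, none past an adjusted p of 0.05. It was 0.21 with H2-K1 (rho = 0.22, permutation p = 0.41 and 0.387) and 0.07 with H2-D1 (rho = 0.10, permutation p = 0.773 and 0.678), and it was -0.41 with Tap2 (rho = -0.35, permutation p = 0.0955 and 0.16). The adjusted p for r was 0.507, 0.787 and 0.229, and r was 0.17, 0.01 and -0.29 without the 2 extreme samples. Among the members B2m had its highest r with H2-Aa, 0.48 (rho = 0.51, permutation p = 0.0429 and 0.0341, adjusted p = 0.131 for r). That r was 0.59 without the 2 extreme samples and 0.33 within genotypes. WT replicate 1 had the highest B2m of all samples, 1383 CPM, with H2-K1 at 90.7 CPM. WT replicates 7 and 8 had B2m at 546 and 517 CPM with H2-K1 at 170 and 149 CPM.

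Cd74 also crossed the line between the classes. This invariant chain of class II tracked the class I heavy chains, at r = 0.84 with H2-K1 (rho = 0.83, permutation p = 3e-05 and 5e-05) and 0.85 with H2-D1 (rho = 0.86, permutation p = 1e-05 for both), and at 0.75 and 0.80 without the 2 extreme samples (adjusted p = 0.000275 and 0.00011 for r by permutation). With H2-Aa, the alpha chain whose groove it guards, its r was 0.28 (rho = 0.19, permutation p = 0.27 and 0.442), and with H2-Ab1 it was 0.70 (rho = 0.71, permutation p = 0.00081 and 0.00131). The adjusted p for r was 0.437 and 0.00343, and r was -0.05 and 0.58 without the 2 extreme samples. The alpha and beta chains correlated with each other, H2-Ab1 with H2-Eb1 at r = 0.90 (rho = 0.72), H2-Aa with H2-Eb1 at 0.84 (rho = 0.60) and H2-Aa with H2-Ab1 at 0.82 (rho = 0.68). Their permutation p for r was 1e-05, 5e-05 and 0.00014, and the adjusted p 0.00011, 0.000344 and 0.0007. These were lower without the 2 most extreme samples, at 0.77, 0.65 and 0.62. Ciita, at its few reads, correlated with none of the class II genes past an adjusted p of 0.05, and its r ran from 0.05 with H2-Aa to 0.44 with Cd74. Within genotypes, where no p was computed, it ran from 0.28 with H2-Aa to 0.63 with Cd74.

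**Figure D4:**
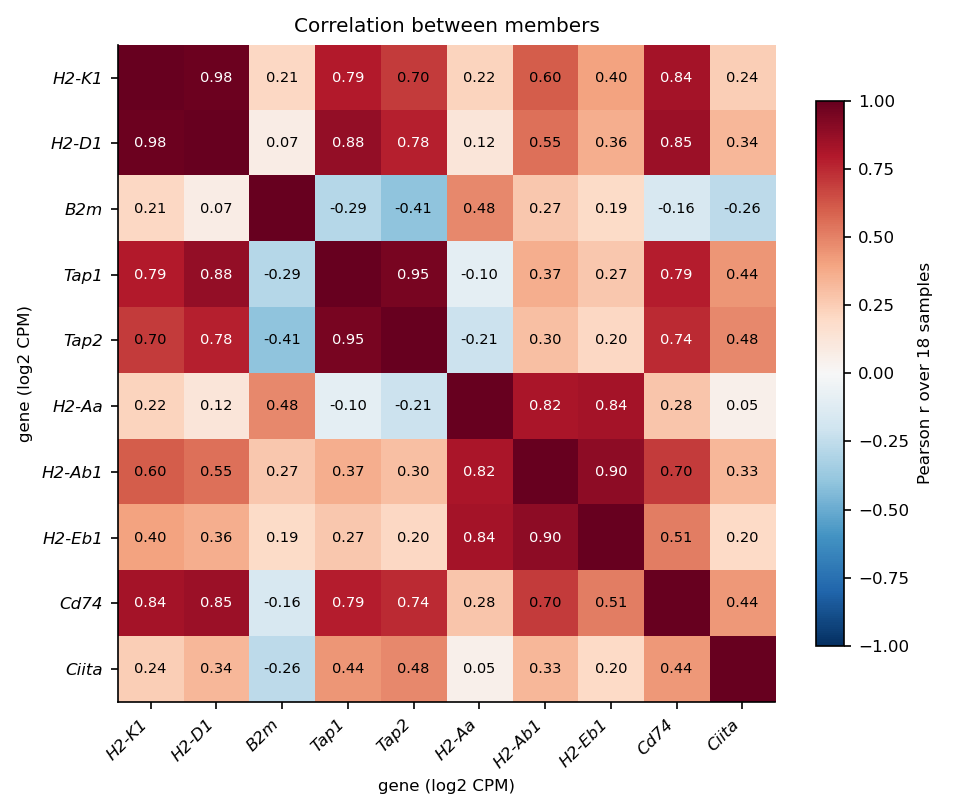
Pearson r between the log2 levels of each pair of members over the 18 samples (colour, and the number in each cell). H2-K1, H2-D1, Tap1, Tap2 and Cd74 form a block of high values, and the chains H2-Aa, H2-Ab1 and H2-Eb1 form another. The B2m row runs from -0.41 with Tap2 to 0.48 with H2-Aa.

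**Figure D5:**
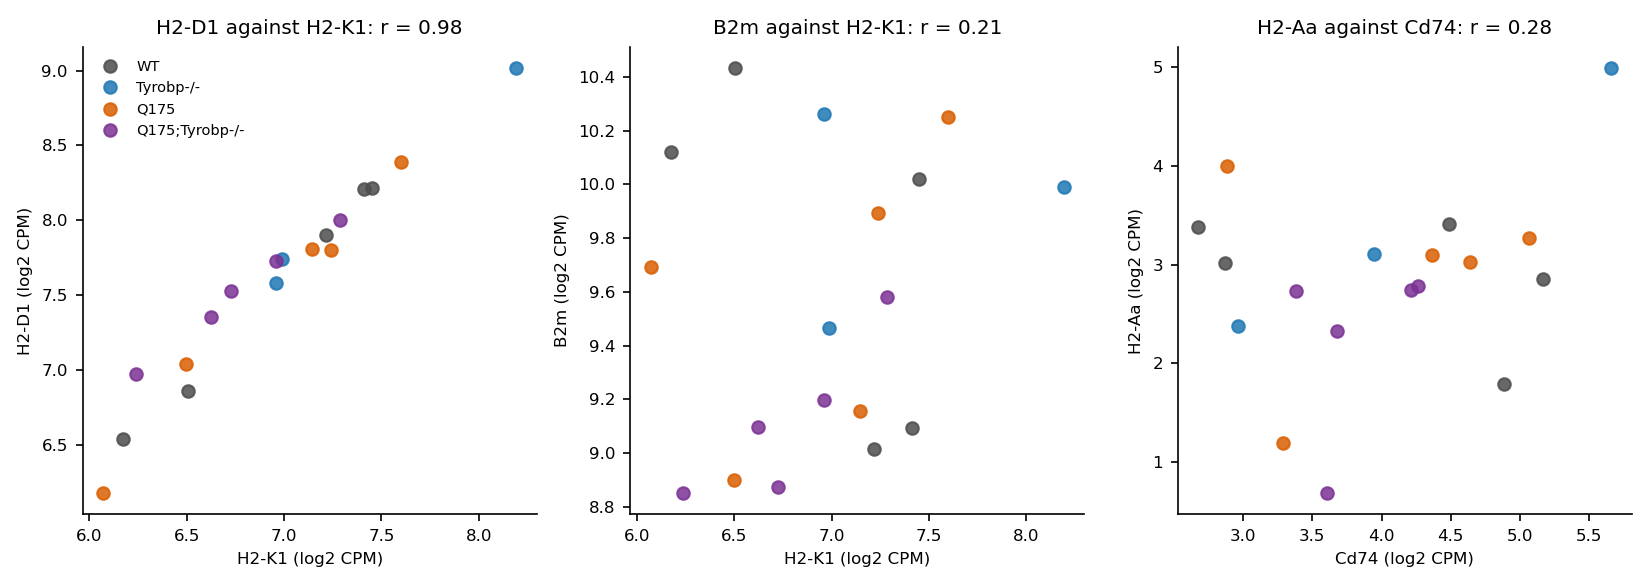
H2-D1 and B2m against H2-K1, and H2-Aa against Cd74 (log2 CPM on both axes), with a point for each sample coloured by genotype. H2-D1 lies along a line with H2-K1 (r = 0.98), while B2m (r = 0.21) and H2-Aa (r = 0.28) scatter over the 18 samples. Within Tyrobp-/- H2-Aa rose with Cd74. Within Q175;Tyrobp-/- the samples highest and lowest in H2-K1 were also so in B2m.

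The genes with the most similar pattern differed accordingly, which is given as a description. Among 16074 genes with at least 1 CPM on average, those closest to the mean log2 level of the 5 class I members were H2-Q4 (r = 0.92), H2-T23 (r = 0.91), Lgals3bp (r = 0.88), C3 (r = 0.88) and Naa10 (r = 0.87). H2-Q4 and H2-T23 are further class I heavy chains, and C3 is the central complement component. With B2m taken out of the mean, a choice made after its values were seen, H2-T23 (r = 0.95) and Lgals3bp (r = 0.95) led. B2m itself lay closest to Ctsc (r = 0.97), a lysosomal protease, Clec5a (r = 0.96), a receptor that signals through DAP12, and C330018D20Rik, Ms4a6d and Cd48 (r = 0.96 each). The class II level lay closest to Serf1 (r = 0.76), Plk4, Sept1, Slc25a24 and Snrpb (r = 0.69).

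Base composition differed between the same genes. The 50 genes closest to B2m had a median exonic GC content of 41.6%, and the 50 closest to the other class I members 56.9%, against a median of 49.4% over the 16074 genes. The members themselves lie on those sides, B2m at 41.2% GC and H2-K1, H2-D1, Tap1 and Tap2 at 53.9% to 57.9%. A tilt of each library with GC content was taken over the non-member genes with at least 1 CPM on average. It had an r of -0.40 with B2m (rho = -0.31, permutation p = 0.1 and 0.202, adjusted p = 0.229 for r). With the other class I members its r was -0.25 to -0.18 (rho = -0.24 to -0.20). The part of GC content in these correlations was not tested beyond this.

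The wider pathway was read from 6 lists of further presentation genes, 60 of whose 70 symbols were tested in each comparison. By edgeR 0 of the 60 were called in any of the 5 comparisons. An unadjusted p under 0.05 was reached by 2 of 60 (3.33%) in Q175 against WT, by 7 (11.7%) in Q175;Tyrobp-/- against Q175, by 0 in Tyrobp-/- against WT, by 12 (20%) in Q175;Tyrobp-/- against Tyrobp-/- and by 1 (1.67%) in the interaction. The shares over all genes are those given above.

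Other class I heavy chains had negative fitted values in Q175 against WT for 11 of 11 tested, with a median of -0.38, and 2 of them had an unadjusted p under 0.05. H2-T10 was at -0.84 ± 0.33 and H2-M3, which presents formylated peptides, at -0.46 ± 0.20 (edgeR adjusted p = 0.652 and 0.744). The value nearest to 0 was that of H2-T23. In Q175;Tyrobp-/- against Q175, 8 of 11 had positive values, from H2-M5 at -0.31 ± 0.50 to H2-T24 at 0.68 ± 0.30 (unadjusted p = 0.0401, edgeR adjusted p = 0.533). In Tyrobp-/- against WT 10 of 11 did, from H2-T24 at -0.06 ± 0.49 to H2-Q6 at 0.77 ± 0.65. In Q175;Tyrobp-/- against Tyrobp-/- 10 of 11 had negative values, from H2-Q6 at -1.18 ± 0.72 to H2-T24 at 0.45 ± 0.31. Mr1, which presents vitamin metabolites, was at -0.45 ± 0.16 there (unadjusted p = 0.0169, edgeR adjusted p = 0.305). In the interaction 8 of 11 had negative values, from H2-Q6 at -0.69 ± 0.91 to H2-T24 at 0.82 ± 0.60.

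Interferon signalling genes, which act upstream of both classes, had positive fitted values in Q175;Tyrobp-/- against Q175 for 13 of 13 tested, with a median of 0.35. Jak1, a kinase of the interferon receptors, was at 0.48 ± 0.19, Irf2 at 0.46 ± 0.19 and Ifngr1, a chain of the interferon gamma receptor, at 0.40 ± 0.18. The unadjusted p of these 3 was between 0.0228 and 0.0479, and the edgeR adjusted p was 0.533 for each. Irf7 had the highest value, 0.97 ± 0.48, and Jak2 the lowest, 0.08 ± 0.13. In the same comparison 9 of 10 microglial markers had positive values (median 0.28), and negative values were found for 7 of 8 astrocyte (median -0.38), 7 of 7 neuron (median -0.24) and 7 of 7 oligodendrocyte markers (median -0.33). Their part in the result was not tested. The same list had negative values in Q175 against WT for 12 of 13, from Irf9 at -0.33 ± 0.19 to Irf7 at 0.01 ± 0.39, with a median of -0.19. In Tyrobp-/- against WT 9 of 13 were positive, from Stat2 at -0.26 ± 0.19 to Irf7 at 0.83 ± 0.47, and in Q175;Tyrobp-/- against Tyrobp-/- 11 of 13, from Irf1 at -0.17 ± 0.20 to Stat2 at 0.36 ± 0.16. In the interaction 13 of 13 had a positive value, the lowest being Irf1 at 0.09 ± 0.29, with Stat2 at 0.50 ± 0.20 (unadjusted p = 0.0234, edgeR adjusted p = 0.716).

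Peptide supply and class II loading genes were called by DESeq2 in Q175;Tyrobp-/- against Tyrobp-/-. It called 5 of the 60 listed genes, where it called 3.84% of all genes tested, and edgeR called 0. Ctsl, an endosomal protease, was at -0.65 ± 0.13 (adjusted p = 0.0015 by DESeq2 and 0.291 by edgeR), and Ctss, the protease that trims the invariant chain, at -0.47 ± 0.18 (0.0904 by DESeq2). Canx, a chaperone of new heavy chains, was at -0.45 ± 0.12 (0.0165 by DESeq2), Erap1, the peptide trimmer of the endoplasmic reticulum, at -0.46 ± 0.13 (0.0820 by DESeq2), and H2-Oa, a modulator of class II loading, at -0.46 ± 0.15 (0.0951 by DESeq2). The co-stimulatory Cd86 was at -0.45 ± 0.15 (edgeR adjusted p = 0.295). Ifi30, a thiol reductase of the endosome, was at -0.53 ± 0.16, March1, a ubiquitin ligase of class II, at -0.35 ± 0.14, and Psmb10, a subunit of the immunoproteasome, at -0.34 ± 0.14, each with an unadjusted p under 0.05 and an edgeR adjusted p of at least 0.29. The class I supply list had negative values for 12 of 12 tested, up to Nlrc5 at -0.01 ± 0.42, and the class II loading list for 11 of 12, up to H2-DMb2 at 0.20 ± 0.28. In the class II transcription complex, Nfyb was at -0.43 ± 0.15 and Creb1 at -0.34 ± 0.11 (edgeR adjusted p = 0.315 and 0.295).

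The same lists had the following ranges in the other comparisons. In Q175 against WT the class I supply list ran from Psmb8 at -0.28 ± 0.20 to Calr at 0.02 ± 0.28, and the class II loading list from Ctss at -0.33 ± 0.31 to Ctsd at 0.07 ± 0.33. The former ran, in Q175;Tyrobp-/- against Q175, from Erap1 at -0.19 ± 0.17 to Tapbpl at 0.40 ± 0.27, and the latter from Ctsl at -0.52 ± 0.19 (unadjusted p = 0.0156) to H2-DMb2 at 0.50 ± 0.36, with H2-Oa at -0.39 ± 0.18 (unadjusted p = 0.0499; edgeR adjusted p = 0.533 for both). Ctsl averaged 415 CPM in Q175 and 292 CPM in Q175;Tyrobp-/-. In Tyrobp-/- against WT the class I supply list had 12 of 12 positive values, from Psme2 at 0.04 ± 0.20 to Tapbpl at 0.51 ± 0.45, and the class II loading list 7 of 12, from Ctsl at -0.12 ± 0.33 to Ctsd at 0.33 ± 0.35. In the interaction the supply list ran from Canx at -0.34 ± 0.31 to Nlrc5 at 0.25 ± 0.58 and the loading list from Ctsl at -0.33 ± 0.37 to H2-DMb2 at 0.41 ± 0.51.

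The class II transcription complex, the factors that bind the X and Y boxes, ran from Rfx5 at -0.13 ± 0.26 to Rfxap at 0.17 ± 0.24 in Q175 against WT and from Nfyb at -0.18 ± 0.18 to Nfya at 0.40 ± 0.21 in Q175;Tyrobp-/- against Q175. For Tyrobp-/- against WT it ran from Rfx5 at -0.08 ± 0.29 to Rfxap at 0.44 ± 0.25, in Q175;Tyrobp-/- against Tyrobp-/- up to Rfx5 at 0.19 ± 0.16, and in the interaction from Nfyb at -0.40 ± 0.30 to Rfx5 at 0.37 ± 0.34. Co-stimulatory genes ran from Icosl at -0.22 ± 0.29 to Cd80 at -0.01 ± 0.18 in Q175 against WT, and from Cd86 at -0.32 ± 0.17 to Cd40 at 0.92 ± 0.53 in Q175;Tyrobp-/- against Q175. These genes ran from Cd274 at -0.22 ± 0.24 to Cd40 at 0.91 ± 0.53 in Tyrobp-/- against WT, up to Icosl at 0.08 ± 0.22 in Q175;Tyrobp-/- against Tyrobp-/-, and from Cd80 at -0.21 ± 0.23 to Icosl at 0.36 ± 0.40 in the interaction.

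Markers of other cells that carry class II differed in fitted value between the same genotypes. Of the 6 of 10 border-associated macrophage markers tested, 6 had positive values in Tyrobp-/- against WT, with a median of 0.87. In Q175 against WT 5 had positive values, with a median of 0.84. An unadjusted p under 0.05 was reached by 2 in the former, against 6.82% of genes, and by 0 in the latter, against 6.24%. Negative values were found for 5 of 6 in Q175;Tyrobp-/- against Tyrobp-/- (median -0.86, 3 with an unadjusted p under 0.05, against 13.2% of genes). In Q175;Tyrobp-/- against Q175 they were found for 5 of 6 (median -0.80, 2 with such a p, against 8.01%). In the interaction they were found for 6 of 7 (median -1.58, 4 with such a p, against 6.01%). At FDR 0.1 edgeR called 0 of these markers in each comparison, and DESeq2 called 1, in Tyrobp-/- against WT. The summed level of all 10 was 218 to 599 CPM in WT, 272 to 460 CPM in Tyrobp-/-, 205 to 394 CPM in Q175 and 238 to 523 CPM in Q175;Tyrobp-/-. Nearly all of that sum was Stab1, at a mean of 349, 356, 318 and 367 CPM in the same order, so it does not describe the others. Mrc1, the mannose receptor, averaged 6.88, 10.6, 10.7 and 6.89 CPM in that order, and Cd163, a scavenger receptor, 0.533, 1.2002, 1.27 and 0.311 CPM. The 7 dendritic cell markers summed to 6.41 to 8.82 CPM in WT, 8.40 to 10.7 CPM in Tyrobp-/-, 6.61 to 10.6 CPM in Q175 and 4.85 to 7.14 CPM in Q175;Tyrobp-/-. Monocyte markers summed to 60.5 to 96.7 CPM in WT, 82.4 to 127 CPM in Tyrobp-/-, 48.6 to 94.4 CPM in Q175 and 35.8 to 97.6 CPM in Q175;Tyrobp-/-, with the highest sum in Tyrobp-/- replicate 15. Most of that was Vcan, at a mean of 49.2 to 65.7 CPM per genotype, while Ccr2 averaged 5.79, 11.01, 5.71 and 6.18 CPM.

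The depth behind these markers varied, with Mrc1 at 61 to 325, Ccr2 at 35 to 219 and the dendritic cell factor Zbtb46 at 30 to 177 reads per library. Clec10a, a lectin of dendritic cells and macrophages, had 1 to 5 reads in WT libraries, 19, 21 and 3 in Tyrobp-/- replicates 15, 19 and 20, 2 to 17 in Q175 and 2 to 9 in Q175;Tyrobp-/-. Its interaction was -3.22 ± 0.91 (unadjusted p = 0.00239, edgeR adjusted p = 0.716). It reached 1 CPM only in Tyrobp-/- and Q175 samples, so it was tested only through the groups where it was higher. Of the 7 dendritic cell markers 5 were tested in the interaction, with negative values for 4 and a positive value for 1 (median -0.71). Cd163 had an interaction of -3.10 ± 0.99 (unadjusted p = 0.00548, edgeR adjusted p = 0.716), and no Q175;Tyrobp-/- sample reached 1 CPM of it. Xcr1 had 0 to 8 reads per library and H2-Eb2 0 to 6. The part of these cells in the class II values was not tested.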

How the data were processed

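The authors made SMART-Seq v4 libraries without strand, aligned reads with STAR, and summarised them to genes by featureCounts. A UCSC gene model is stated for this step, although the identifiers in the table are from Ensembl. The deposited file holds unnormalised counts for 55536 genes. The labels name GRCh38, while all gene identifiers are mouse and the methods name GRCm38. Samples were grouped by their titles, and 2 columns matching no labelled sample were not used.

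Counts were analysed with edgeR 4.0.16 (R 4.3.3), using TMM scaling and the quasi-likelihood test. Each pair of genotypes was fitted on its own samples, and the interaction on all 18. A gene was tested where any sample of the fit reached 1 CPM, with Benjamini-Hochberg adjustment over all of them and calls at FDR 0.1. The study's methods use DESeq2 with this filter; DESeq2 1.42.0 was an alternative. SE is the log2 fold change divided by the square root of F, with 95% intervals from the t distribution. CPM are TMM-scaled, RPKM divide them by GENCODE M21 exonic length, and log2 levels use a prior count of 2. Correlations have 100000 permutations. The 2 extreme samples left out of a pair are those farthest from the median of the gene named earlier in the opening list of members. They can differ between pairs, and extremes of the other gene stay in. The GC tilt is a library's slope of log2 level on exonic GC content, relative to all libraries, over non-member genes with at least 1 CPM on average. The methods were tested on simulated data.

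All 10 members were named. Of the further lists were named the genes with an unadjusted p under 0.05 and those with the highest and lowest value per comparison, and the 5 genes most similar to each class; 1 gene is not reported here. Members and lists were chosen with earlier results of these data known. Each sample is taken as a separate mouse, which the labels do not state; p-values measure only the spread between samples.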

Additional observations from a re-analysis of the deposited data

Results flagged for a closer look

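H2-Aa in Q175;Tyrobp-/- replicate 16 stood apart from its group. It was at 1.502 CPM on 35 reads, where the other 4 samples lay between 4.90 and 6.75 CPM, and on the log2 scale the gap took up 0.782 of the whole range. On the CPM scale it took up 0.646, under the limit. In 30 such tests, of the 10 members in the groups of 5, this was the only one past the 95% limit of Dixon's test, and chance flags about 1 in 20 groups. The same sample was lowest in its group for H2-Ab1 at 4.33 CPM and for H2-Eb1 at 1.59 CPM.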

How the results depend on the processing

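Under 11 other settings and the left-out samples, 62 of 1028 member values had the other sign and 1 member was called in 1 setting. By DESeq2, 1 member was called in Q175;Tyrobp-/- against Tyrobp-/- (B2m, -0.80), where edgeR called 0. All other values below are log2 fold changes, and the cause of each shift was not tested. In Q175 against WT, H2-Ab1 was at -0.060 with total counts as scaling. With sex as a term the class II median was -0.36, H2-Aa -0.23, H2-Ab1 -0.36 and H2-Eb1 -0.22. With the marker score as a term, the class I median was -0.72, the class II median -0.74 and H2-Ab1 -0.74. The score did not overlap between Q175 and WT, so this fit cannot separate it from genotype. B2m was at 0.022 with the GC tilt, and H2-Ab1 at -0.094 without samples of a score above 1, 2 alternatives chosen after seeing the data. Only Q175 replicate 14 had such a score in Q175 against WT, so that fit is also counted among the left-out samples. For H2-D1 in Q175;Tyrobp-/- against Q175, the value was 0.064 with total counts and 0.092 without samples of a high score. In Tyrobp-/- against WT, Cd74 was at -0.14 with sex. The score, which did not overlap between Tyrobp-/- and WT either, gave a class II median of 1.30, B2m -0.14 and Ciita 0.28. Leaving out samples of a high score removed only Tyrobp-/- replicate 20, a fit also counted among the left-out samples. It gave a class II median of 1.06 and B2m -0.14. Tap2 was at 0.020 with the GC tilt in Q175;Tyrobp-/- against Tyrobp-/-. In the interaction, Tap1 was at 0.089 with total counts and 0.13 with sex, and Tap2 at -0.072 with the score and -0.048 without samples of a high score.

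Leaving out each sample in turn gave these ranges. In Q175 against WT they were -0.24 to 0.12 for H2-K1, -0.37 to 0.12 for H2-D1, -0.35 to 0.0034 for Tap2, -0.19 to 0.38 for H2-Aa, -0.094 to 0.20 for H2-Ab1 and -0.39 to 0.19 for Cd74. For Q175;Tyrobp-/- against Q175 the range was -0.27 to 0.18 for H2-D1. In Tyrobp-/- against WT they were -0.14 to 0.29 for B2m, -0.23 to 1.06 for the class II median, -0.067 to 0.67 for H2-K1, -0.041 to 0.78 for H2-D1, -0.23 to 1.31 for H2-Aa, -0.10 to 1.06 for H2-Ab1 and -0.81 to 0.67 for Cd74. In Q175;Tyrobp-/- against Tyrobp-/- they were -0.89 to -0.10 for the class I median, -0.28 to 0.088 for Tap2 and -1.15 to 0.36 for Cd74. In the interaction they were -0.76 to 0.020 for the class I median, -1.31 to -0.11 for the class II median, -0.22 to 0.19 for Tap1, -0.086 to 0.33 for Tap2, -0.83 to 0.020 for H2-D1 and -1.03 to 0.47 for Cd74. The end nearest to 0 or past it came without Tyrobp-/- replicate 15 for both medians in the last 2 comparisons and for H2-K1, H2-D1, H2-Aa, H2-Ab1 and Cd74 in Tyrobp-/- against WT. No paired analysis was possible because the groups share no replicate numbers.

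Ciita rests on 0 to 31 reads per library, which limits the precision of its values.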
